A study of Mus musculus with 6 samples.

Results

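The GADD45 family was followed in liver RNA of mice given LPS alone or LPS with GalN. Its members were the target rows whose gene description named growth arrest and DNA-damage-inducible 45 alpha, beta or gamma, or the gamma interacting protein 1. The rule found 6 target rows for 4 genes among 44170 rows on each array: 3 rows for Gadd45a and 1 row each for Gadd45b, Gadd45g and Gadd45gip1. All 6 mice were wild-type C57 BL/6 males aged 9 to 10 weeks, and each gave 1 array. The 3 LPS mice were given lipopolysaccharide (LPS, from the outer membrane of bacteria) at 0.01 µg. The 3 LPS/GalN mice were given that dose together with D-galactosamine (GalN) at 20 mg. GalN traps uridine nucleotides in hepatocytes, which lowers their RNA synthesis and makes the liver sensitive to LPS. Livers were sampled after 2.5 h in both groups. Both groups carried LPS, and untreated mice or mice given GalN alone were not analysed here, so a lower value in LPS/GalN cannot be told apart as less induction or as loss of the transcript. Per the labels the replicates came from separate treatments, so the tests measure the spread between mice.

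GADD45 proteins are small acidic proteins made in response to stress. They have no known enzymatic activity of their own and work by binding partners. They activate the kinase Map3k4 upstream of p38 and JNK, bind the cell cycle proteins Pcna, p21 and Cdk1 with cyclin B1, and have been linked to DNA repair and active DNA demethylation. Gadd45a is a classical target of p53, Gadd45b (first described as MyD118) is a target of NF-kB that can restrain JNK signalling through Map2k7, and Gadd45g (first described as CR6) responds to cytokines. Gadd45gip1, also called CRIF1, was found as a protein that binds GADD45 gamma. It is not a GADD45 homologue, and it serves in the large subunit of the mitochondrial ribosome.

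Promoter sequences are shown for the GADD45 genes proper, since Gadd45g and the bright row of Gadd45a fell in LPS/GalN and Gadd45b, which did not pass the threshold, is their homologue. Of the 4 members, 3 had an entry in the RefSeq promoter table (GRCm38.p6) and Gadd45gip1 had none. Each line gives the 250 bases before the annotated start, 5′ to 3′ on the gene's strand, for Gadd45a at chr6:67037408-67037657 (minus strand), Gadd45b at chr10:80929841-80930090 (plus strand) and Gadd45g at chr13:51846425-51846674 (plus strand). Capitals mark the octamer ATTTGCAT, the CCAAT box, the E-box CACGTG and the TATA box TATAAA, on either strand.
Gadd45a: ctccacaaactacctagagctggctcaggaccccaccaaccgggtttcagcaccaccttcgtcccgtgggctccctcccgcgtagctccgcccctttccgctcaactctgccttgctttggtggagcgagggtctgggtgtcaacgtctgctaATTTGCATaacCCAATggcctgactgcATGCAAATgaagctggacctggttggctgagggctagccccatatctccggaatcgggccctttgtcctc
Gadd45b: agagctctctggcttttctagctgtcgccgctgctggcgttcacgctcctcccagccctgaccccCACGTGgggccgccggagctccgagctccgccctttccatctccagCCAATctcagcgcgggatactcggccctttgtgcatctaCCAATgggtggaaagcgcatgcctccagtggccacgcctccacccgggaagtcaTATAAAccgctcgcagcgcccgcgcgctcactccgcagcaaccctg
Gadd45g: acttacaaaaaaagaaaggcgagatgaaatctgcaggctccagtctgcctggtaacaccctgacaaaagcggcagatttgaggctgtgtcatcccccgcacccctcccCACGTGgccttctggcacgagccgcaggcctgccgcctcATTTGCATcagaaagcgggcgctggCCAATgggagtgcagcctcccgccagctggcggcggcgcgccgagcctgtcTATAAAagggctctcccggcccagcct

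In these windows 7 motifs were searched on both strands, chosen with the sequences in view. The octamer ATTTGCAT, the site of POU factors such as Oct-1, was present in Gadd45a, from -97 to -90 on the plus strand and from -70 to -63 on the minus strand. It was also present in Gadd45g, from -103 to -96, and not in the Gadd45b window. Of 32851 windows of the same length in the table, 1.6% held it. All 3 windows held CCAAT, as did 33.8% of all windows. Gadd45b and Gadd45g both held CACGTG (6.02% of all windows) and TATAAA (12.4%). Gadd45a and Gadd45b held the GC box GGGCGG (32.7% of all windows). The AP-1 motif TGANTCA (6.75% of all windows) and the NF-kB motif (7.25%) had no match in any of the 3 windows. None of the matches overlapped another. These are letter matches and not measured binding sites.

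Values are RMA intensities on a linear scale, as deposited, and differences are log2 LPS/GalN minus LPS. A row of random probes on each array, between 31.3 and 34.7, gives the reading without a matching transcript. The array medians lay between 60.4 and 63.1. Tests are limma over all 44170 rows with Benjamini-Hochberg adjustment, and the threshold is an adjusted p under 0.05. The arrays carried liver RNA: all 10 hepatocyte markers checked, among them Alb and Ttr, read above the random probes on every array.

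Gadd45g, the member known for its response to cytokines, fell most. It read 6024, 5329 and 4774 in LPS replicates 1 to 3 and 262, 206 and 264 in LPS/GalN replicates 1 to 3. All 3 LPS arrays were high and all 3 LPS/GalN arrays low, with no overlap. On the log2 scale the LPS mean was 12.39 ± 0.17 and the LPS/GalN mean 7.92 ± 0.20 (SD over 3 arrays). The difference was -4.47 ± 0.23 (SE), a 22.1-fold lower level, with an adjusted p of 0.000214 by limma. It ranked 33 of 44170 rows from the lowest difference upward. The Gadd45g target lies on chromosome 13, from 51942062 to 51943843 on mm9.

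Gadd45a, the classical p53 target, also fell in its bright row. This row (BC011141, chromosome 6, 66985093 to 66987380 on mm9) read 2415, 2665 and 2536 in LPS and 566, 578 and 798 in LPS/GalN. The groups did not overlap, and the LPS arrays lay close together (11.31 ± 0.071, SD, n = 3) while LPS/GalN spread more (9.32 ± 0.28). The difference was -1.99 ± 0.23 (SE), a 3.97-fold lower level, with an adjusted p of 0.00307 by limma. It ranked 757 of 44170 from the lowest difference upward.

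Gadd45b, the NF-kB target of the family, did not pass the threshold. Its row (BC023815, chromosome 10, 80392834 to 80394949 on mm9) read 1356, 1017 and 1112 in LPS and 546, 732 and 780 in LPS/GalN. Every LPS/GalN array lay below every LPS array, with LPS/GalN replicate 1 the lowest. The difference was -0.77 ± 0.24 (SE), with a 95% interval from -1.33 to -0.20 and an adjusted p of 0.152 by limma. The interval is that of a single row, without adjustment for the number of rows. With trend and robust fitting the adjusted p was 0.0309.

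Gadd45gip1, the mitochondrial ribosome protein, gave slightly higher values in LPS/GalN that did not pass the threshold. Its row (BC061069, chromosome 8, 87356180 to 87358363 on mm9) read 1139, 1269 and 1164 in LPS and 1366, 1382 and 1494 in LPS/GalN. All 3 LPS/GalN arrays were above all 3 LPS arrays. The difference was 0.25 ± 0.21 (SE), with a 95% interval from -0.22 to 0.72 and an adjusted p of 0.593 by limma.

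**Figure D1:**
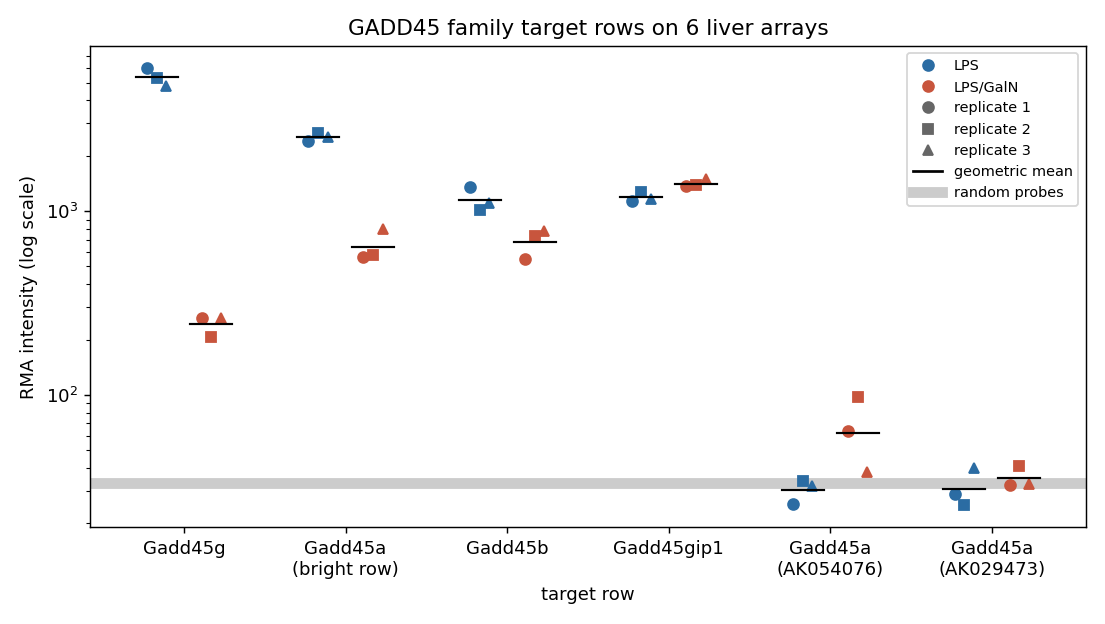
RMA intensity (log scale) of the 6 GADD45 family target rows, with 1 point per array, colour for group, shape for replicate, a line for the geometric mean and a grey band for the random probes. Gadd45g and the bright Gadd45a row separate widely between groups, Gadd45b and Gadd45gip1 narrowly, and the other Gadd45a rows lie near the grey band.

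The other 2 rows described as Gadd45a did not follow the bright row. Both come from RIKEN clones and have the same mm9 span, 66986592 to 67030646 on chromosome 6. This span covers 44055 bases, against 2288 for the bright row, begins within the bright row's span and runs on upstream of the gene. The row AK029473 read 29.0, 25.1 and 40.0 in LPS and 32.6, 41.3 and 32.8 in LPS/GalN, at the level of random probes, with overlapping groups. Its difference was 0.20 ± 0.26 (SE, adjusted p = 0.746 by limma).

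The row AK054076 read 25.4, 34.2 and 31.8 in LPS and 63.6, 97.1 and 38.2 in LPS/GalN. Of the LPS arrays 1 was above the random probes, and all 3 LPS/GalN arrays were, with no overlap between groups. The difference was 1.03 ± 0.35 (SE, adjusted p = 0.177 by limma), in the opposite direction to the bright row. Without LPS/GalN replicate 2 it was 0.70. A row for the predicted gene E230016M11Rik, picked here because its mm9 span (67023614 to 67030648) lies in that of the clones, bears the name of the clone behind AK054076. It read 37.6, 40.6 and 30.2 in LPS and 27.1, 22.1 and 24.4 in LPS/GalN, not above the random probes on any LPS/GalN array. Of its LPS arrays 2 were above the random probes. With the LPS/GalN values set no lower than the random probes, the point estimate was 1.07-fold lower. The difference did not pass the threshold (adjusted p = 0.259 by limma), so no smallest fall is shown. Since the files give gene spans and not probe positions, which transcript these dim rows report was not tested.

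Over the family, 2 of 6 rows were lower past the threshold, against 3.13% of all rows. None of the 6 was higher past it by limma, against 0.654% of all rows. At an unadjusted p under 0.05, 3 of 6 were lower and 1 higher (AK054076), against 4034 and 3707 of all 44170 rows. Rows with every LPS/GalN array below every LPS array numbered 3 of 6, against 11.1% of all rows. Rows with every LPS/GalN array above numbered 2 of 6, against 12.9%. The median difference over all rows was 0.053.

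**Figure D2:**
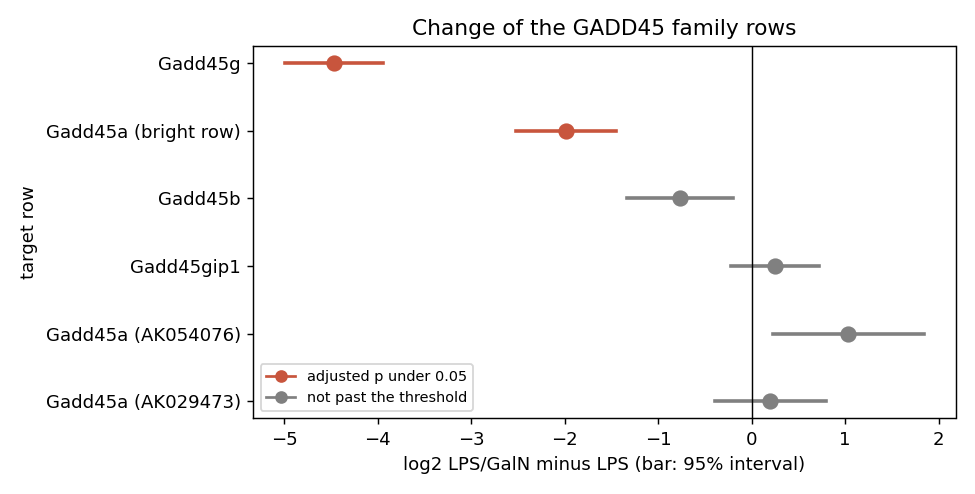
Log2 difference LPS/GalN minus LPS of the 6 target rows (points) with the 95% interval of each row from the limma fit (bars), 3 arrays per group. Gadd45g at -4.47 and the bright Gadd45a row at -1.99 passed the threshold, and the other 4 rows did not.

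The differences of the members were set against each other at their brightest rows. The difference of Gadd45a lay above that of Gadd45g by 2.48 on the log2 scale, and that of Gadd45b by 3.70. Per array, the log2 ratio of Gadd45a to Gadd45g lay between -1.32 and -0.91 in LPS and between 1.11 and 1.60 in LPS/GalN. The difference of Gadd45a minus that of Gadd45b was -1.22. In all 6 pairs of members the per-array ratios of the groups did not overlap. The 6 pairs come from 4 genes, so they are not separate results. At its brightest row each of these genes already showed no overlap between the groups by itself. Each pair gave an exact permutation p of 0.1 (two-sided, 0.1 after Benjamini-Hochberg over the 6 pairs), the smallest that 3 arrays against 3 can give, so none could pass 0.05. These ratios do not compare the level of one gene with that of another.

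Known partners and regulators of the family were read from 6 lists with 56 measured genes, at the brightest row of each gene. In these lists Mapk14, Map2k6, Pcna, Ing1, Pou2f1, Lck and the mitochondrial genes are named after their values were seen. Past the threshold 9 of 56 were lower, with a median difference of 0.14 over the 56. None was higher by limma, while 14 were lower and 8 higher at an unadjusted p under 0.05. Over all rows 3.13% were lower and 0.654% higher past the threshold. At an unadjusted p under 0.05 by limma, 4034 of all 44170 rows were lower and 3707 higher.

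In MAP kinase signalling, where GADD45 proteins act on Map3k4, 1 of 12 genes was lower past the threshold, against 3.13% of all rows. Map3k4, the kinase that GADD45 proteins activate, read 444, 498 and 624 in LPS and 749, 396 and 673 in LPS/GalN. Its groups overlapped, with a difference of 0.18 ± 0.30 (SE, adjusted p = 0.813 by limma). Its 3 rows ranged from -0.36 to 0.18. The member that fell was Map3k5 (ASK1), another kinase upstream of p38 and JNK. It read 2190, 1834 and 2027 in LPS and 313, 53.1 and 281 in LPS/GalN, with LPS/GalN replicate 2 far below the others. The difference was -3.59 ± 0.62 (SE, adjusted p = 0.0172 by limma), and without LPS/GalN replicate 2 it was -2.76 (adjusted p = 0.00377). The call was lost without LPS replicate 1 (0.0748) or 2 (0.0642), and with trend and robust fitting (0.0736). Mapk14, which encodes p38 alpha, differed by -0.78 ± 0.20 (adjusted p = 0.0848), and Map2k6, a kinase that activates p38, by 1.49 ± 0.38 (0.0797).

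Of 8 cell cycle and repair partners, none passed the threshold by limma. At an unadjusted p under 0.05, 1 was lower and 3 were higher, against 4034 and 3707 of all 44170 rows. Cdkn1a, the p53 target that encodes p21, read 2934, 2309 and 4045 in LPS and 2445, 858 and 799 in LPS/GalN. LPS/GalN replicate 1 lay within the LPS range, and the difference was -1.34 ± 0.45 (SE, adjusted p = 0.17 by limma). Without that array it was -1.86, with an adjusted p of 0.0161. Pcna, the replication clamp, read 2760, 2899 and 3023 in LPS and 3765, 8362 and 7109 in LPS/GalN (adjusted p = 0.128). Its highest values lay on LPS/GalN replicates 2 and 3, where T cell and thymus markers were high (summed intensity 9922 and 6008, against 374 to 597 on the other arrays), and the part of those cells in this value was not tested.

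Of 10 genes linked to DNA demethylation and base excision repair, 1 was lower past the threshold, against 3.13% of all rows. Apex1, the apurinic endonuclease, read 2143, 2565 and 2329 in LPS and 724, 658 and 770 in LPS/GalN, without overlap. It was 3.27-fold lower (difference -1.71 ± 0.21, SE, adjusted p = 0.00399 by limma). Ing1, a chromatin reader of the growth arrest pathway, read 189, 243 and 227 in LPS and 380, 695 and 493 in LPS/GalN. It differed by 1.21 ± 0.28 (adjusted p = 0.0566). Its highest values also lay on LPS/GalN replicates 2 and 3, where T cell and thymus markers were high. The part of those cells in this value was not tested.

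Among 11 measured upstream regulators 4 were lower past the threshold, against 3.13% of all rows. Rela, the p65 subunit of NF-kB, read 1665, 1881 and 1633 in LPS and 284, 333 and 215 in LPS/GalN, a difference of -2.66 ± 0.24 (SE, adjusted p = 0.00112 by limma). Nfkb1, which encodes the p105 precursor of an NF-kB subunit, read 1785, 1599 and 1168 in LPS and 431, 314 and 378 in LPS/GalN. Its difference was -2.01 ± 0.26 (adjusted p = 0.00436). Stat3, the transcription factor of interleukin-6 signalling, was bright on all arrays, at 35288, 32839 and 37259 in LPS and 13873, 13015 and 13941 in LPS/GalN. It was 2.58-fold lower (adjusted p = 0.00901). Myc was 2.41-fold lower (adjusted p = 0.0336), and its call was lost without any 1 array except LPS/GalN replicate 2 (adjusted p up to 0.127). Trp53, which encodes p53, read 1948, 1993 and 2107 in LPS and 1779, 2134 and 1395 in LPS/GalN. Its groups overlapped, with a difference of -0.21 ± 0.24 (adjusted p = 0.711). Pou2f1, which encodes Oct-1, the factor named for the octamer, read 48.9, 60.0 and 107 in LPS and 123, 148 and 139 in LPS/GalN (95% interval of the difference 0.28 to 1.73, adjusted p = 0.146). The other of the 2 Pou2f1 rows differed by -0.49, with overlapping groups. That row was above the random probes on 1 array of each group. Egr1 and Cebpb were listed and not analysed here.

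Of 11 partners of Gadd45gip1, 1 was lower past the threshold, against 3.13% of all rows. It was Nfe2l2, the NRF2 transcription factor (difference -1.19 ± 0.22, SE, adjusted p = 0.0253 by limma). That call was lost without any 1 array except LPS/GalN replicate 1 (adjusted p up to 0.0973). The mitochondrial ribosome genes Mrpl12, Mrpl13, Mrpl17, Mrpl23 and Mrpl24 differed by 0.41, 0.36, 0.17, 0.27 and 0.15, and Oxa1l, which inserts proteins into the inner membrane, by 0.13. Over all their rows, Mrpl23 ranged from 0.27 to 0.59, Mrpl13 from 0.0049 to 0.36 and Oxa1l from 0.13 to 0.23. None of these passed the threshold. Lck, a T cell kinase, read 2375 and 1232 on LPS/GalN replicates 2 and 3 and between 93.9 and 226 elsewhere (adjusted p = 0.337).

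The names GADD34 and GADD153 come from the same screen for growth arrest and DNA damage genes, but belong to unrelated proteins. With Ppp1r15b and Ddit4 added to the list, 4 genes were measured, of which 2 were lower past the threshold, against 3.13% of all rows. Ppp1r15a (GADD34), a phosphatase subunit that reverses the block of translation under stress, read 1343, 1500 and 1316 in LPS and 288, 279 and 344 in LPS/GalN. Its difference was -2.20 ± 0.21 (SE, adjusted p = 0.00148 by limma), without overlap. Its relative Ppp1r15b was 2.31-fold lower (adjusted p = 0.028), in 1 of its 2 rows. That call was lost without any 1 array except LPS replicate 3 (adjusted p up to 0.118). Ddit3 (GADD153, CHOP), a transcription factor of the unfolded protein response, read 161, 261 and 224 in LPS and 204, 235 and 196 in LPS/GalN, with overlapping groups. The 95% interval of its difference ran from -0.58 to 0.58.

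**Figure D3:**
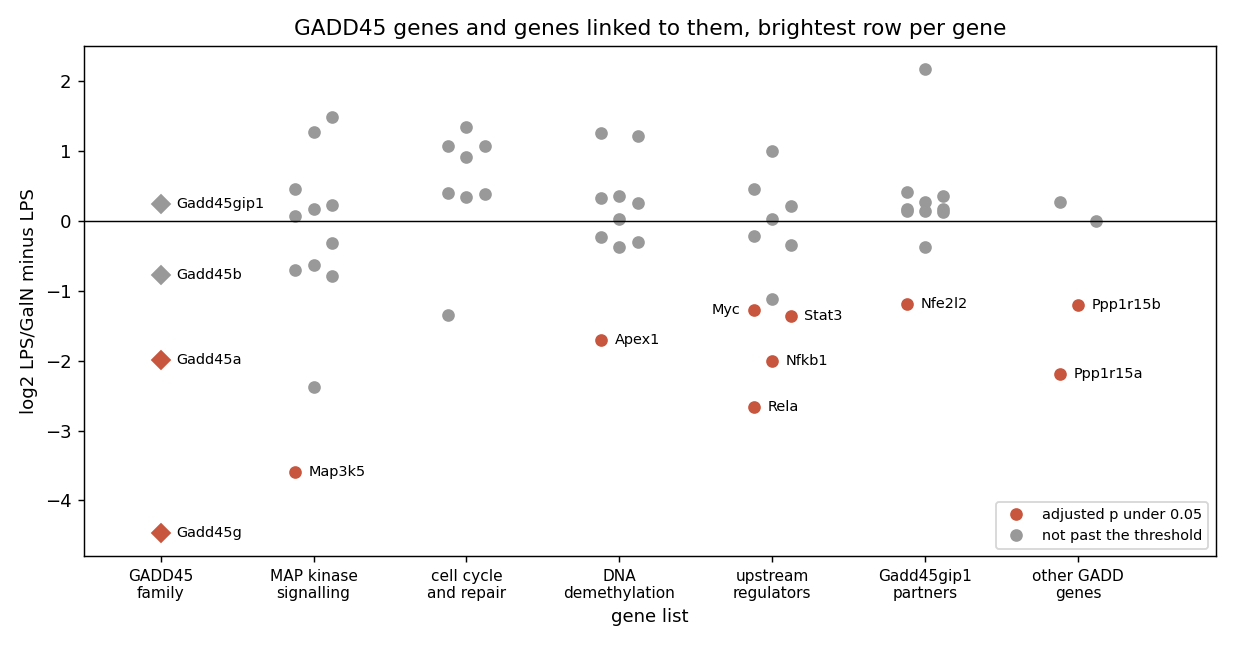
Log2 difference LPS/GalN minus LPS at the brightest row of each GADD45 family gene (diamonds) and of 56 linked genes in 6 lists (circles), with genes past the threshold coloured and named. Gadd45g lies below all linked genes, and 9 linked genes passed, all lower in LPS/GalN.

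Genes with a profile close to a member were sought among 3669 genes with a symbol, by Pearson's r of log2 values over the 6 arrays, among genes with a difference within 0.5 of the member's. Such r values mostly reflect the gap between the groups. Of 44170 rows 4880 had a symbol, and rows without one were not searched. For Gadd45a the closest of 71 candidates were Ppp1r15a (r = 0.996), Rnf19b, a ubiquitin ligase gene (0.996), and Apex1 (0.993). For Gadd45b the closest of 751 were Snhg3, a host gene of small nucleolar RNA (0.996), Kif21a, a kinesin gene (0.995), and B230311B06Rik (0.986). For Gadd45g there were 3 candidates among the genes with a symbol. Arhgef26 read 1906, 1911 and 1704 in LPS and 130, 95.8 and 95.4 in LPS/GalN (r = 0.997). The interferon-induced gene Mx2 followed (r = 0.992). Last was Vil1, a villin gene of intestinal epithelium (r = 0.761), whose profile was not close. Vil1 read 8396, 8280 and 127 in LPS and 53.2, 148 and 79.2 in LPS/GalN. Its groups overlapped (adjusted p = 0.149 by limma), and it is among the intestine markers described next.

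Markers of other cell types differed between arrays of a group. Of the 7 intestine markers 3 read above the random probes on every array, and of the 7 T cell and thymus markers 2 did. The summed intensity of 7 intestine markers was 17871 and 19292 on LPS replicates 1 and 2, and between 1309 and 1827 on the other 4 arrays. That of 7 T cell and thymus markers was 9922 and 6008 on LPS/GalN replicates 2 and 3, and between 374 and 597 elsewhere. Gadd45g read 4774 on LPS replicate 3, where intestine markers were low, and 262 on LPS/GalN replicate 1, where thymus markers were low. Each of these is 1 array, and the part of intestine or thymus RNA in the GADD45 values was not tested. Without LPS replicates 1 and 2 the difference of Gadd45g was -4.30 (adjusted p = 0.0501) and that of Gadd45a -1.99 (0.164), with 1 LPS array left. Without LPS/GalN replicates 2 and 3 they were -4.35 (0.017) and -2.16 (0.052), with 1 LPS/GalN array left.

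The summed levels of 3 other marker lists did not overlap between the groups, while few of their genes passed the threshold. Of all single rows, 11.1% had every LPS/GalN array below every LPS array, and 12.9% had every one above. Past the threshold 3.13% of all rows were lower and 0.654% higher. The summed level of 6 endothelial markers was 4277 to 5849 in LPS and 6669 to 7488 in LPS/GalN, and 1 of them, Pecam1, rose. That of 6 Kupffer cell markers was 4036 to 5549 and 6500 to 8818, with none past the threshold by limma. That of 6 neutrophil markers was 2543 to 3560 in LPS and 942 to 1679 in LPS/GalN, with S100a8 and S100a9 lower. These genes made up most of that sum. Elane, Mpo, Ltf and Camp differed by 0.095, -0.073, -0.046 and -0.75, with overlapping groups and none past the threshold. Of the neutrophil markers 2 of 6 read above the random probes on every array, and of the endothelial and Kupffer cell markers all 6 in each list. The part of these cells in the GADD45 values was not tested. In whole liver, fewer cells of a type and less RNA per cell cannot be told apart.

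**Figure D4:**
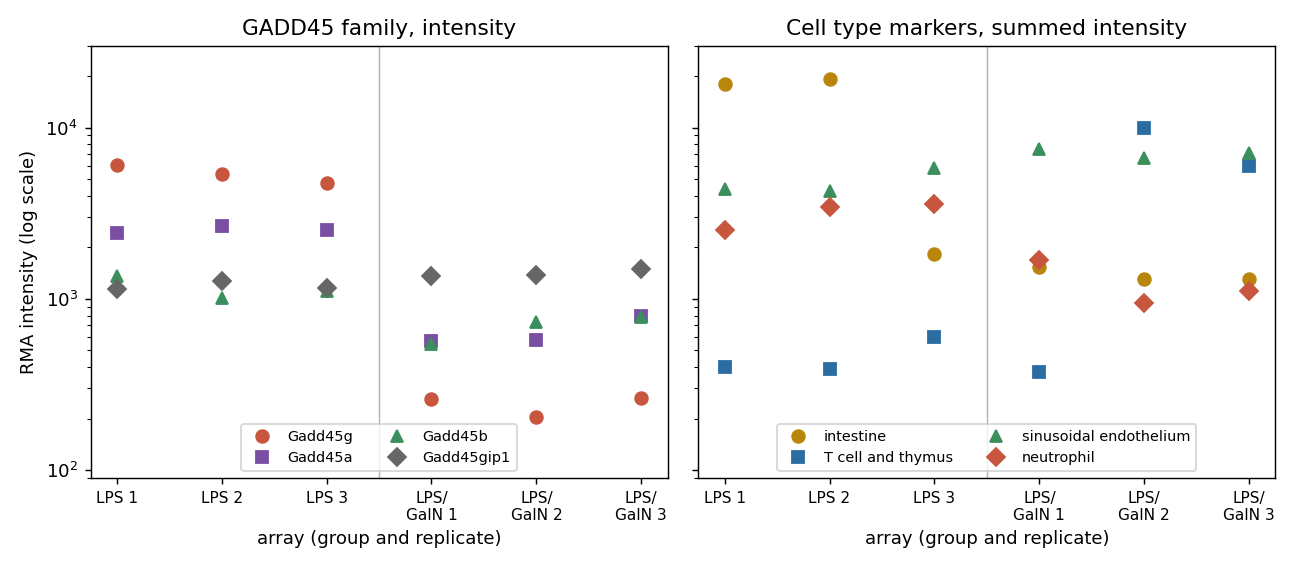
RMA intensity (log scale) on each array of the brightest GADD45 family rows (left panel) and summed intensity of 4 marker lists (right), with a line in each panel between the 3 LPS and the 3 LPS/GalN arrays. Gadd45g is high on all 3 LPS arrays and low on all 3 LPS/GalN arrays. Intestine markers are high only on LPS replicates 1 and 2, and thymus markers only on LPS/GalN replicates 2 and 3.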

How the data were processed

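Liver RNA of 6 mice was labelled with Cy3 and read on 6 NimbleGen single-colour arrays, per the labels. The authors deposited intensity on the linear scale, per the file headers, made with RMA, per the submitters' processing notes (version not given in the sources used here). RMA removes background, makes arrays comparable and joins a target's probes into 1 value. All 6 member rows rest on 3 probes. A global change of RNA would be removed by it, and the number of arrays limits the precision. A deposited table of the series held the 18076 rows with at least 50 on all arrays and served as an alternative.

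Intensities were converted to log2 and groups compared with limma 3.58.1 in R 4.3.3, group as the only term, two-sided, adjusted over 44170 rows. The random-probe row was left out of the fit. The step was tested on simulated data. Symbols came from RefSeq accessions, from symbols in the descriptions, and from a hand-made table of names, and 4880 rows got one. For linked genes the row with the highest mean was used. Named were all member rows, up to 6 genes past the threshold per list and 7 genes whatever their result. For Gadd45a, Gadd45b and Gadd45g, the 3 closest profiles were also named. The members, lists and tests were chosen with earlier results of these data known. Promoters are from RefSeq. Alternatives are other normalization, offset, filter, weights, block and arrays left out.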

Additional observations from a re-analysis of the deposited data

How the results depend on the processing

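Gadd45g and the bright Gadd45a row stayed lower in LPS/GalN under all 17 alternatives, at -4.55 to -4.29 and -2.16 to -1.90. With 1 array left out, they ranged from -4.55 to -4.35 (adjusted p up to 0.0029) and from -2.15 to -1.90 (up to 0.0207). Calls ended where a group kept 1 array, without LPS replicates 1 and 2 (Gadd45g -4.30, Gadd45a -1.99) and, for Gadd45a, without LPS/GalN replicates 2 and 3 (-2.16); the lone array is then assumed to vary like the other group. Gadd45b (-1.08 to -0.61) passed only with trend and robust fitting (-0.77), and Gadd45gip1 (0.20 to 0.32) under none. The pair differences kept their sign in all 8 settings tried.

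Rows lower numbered 1382, and 831 to 1358 with 1 array left out. They were 0 without LPS replicates 1 and 2 and 350 without LPS/GalN replicates 2 and 3. Rows higher numbered 289, and 53 to 804 with 1 array left out, 1093 with trend and robust fitting, 613 with an offset of 32, 758 in the series table, 0 without LPS replicates 1 and 2 and 26 without LPS/GalN replicates 2 and 3. Without LPS replicates 1 and 2, 0 partner genes were lower, and 3 without LPS/GalN replicates 2 and 3, against 9; with 1 array left out 5 to 8 were. Partner genes higher numbered 3 with trend and robust fitting, 1 with quantile normalization, 1 with the offset and 2 in the series table, and 0 to 4 with 1 array left out. Signs turned for values near 0: AK029473 without LPS replicates 1 and 2 (-0.18); Map3k4 without these (-0.093) and with 1 array left out (-0.00046 to 0.46); Ddit3 with quantile normalization (0.051) and with 1 array left out (-0.20 to 0.15). The cause was not tested.

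The replicate numbers do not pair the samples: correlations of deviations of same-numbered arrays were 0.0019, -0.0043 and 0.020. With the replicate block Gadd45g had an adjusted p of 0.00513 and Gadd45a of 0.0201, 144 rows were higher and 1030 lower, and 6 partner genes were lower. The median difference over all rows lay between 0.015 and 0.105 over the settings. AK029473 and AK054076 have no value in the series table or with 1 row per gene. Both lie near the random probes, which limits what their differences show.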
